A study of Mus musculus with 19 samples.

Results

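AMPA and kainate receptors are the ion channels that carry most fast excitatory transmission by glutamate. Here their pore-forming subunits were followed over the day in mRNA on the ribosomes of spinal cord cholinergic neurons. The set is the listed symbols of both families, drawn up with earlier results of these data known, and holds 9 of the 50559 genes of the table. These are the 4 AMPA subunit genes Gria1, Gria2, Gria3 and Gria4 and the 5 kainate subunit genes Grik1, Grik2, Grik3, Grik4 and Grik5. All 9 passed the filter on low counts.

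Spinal cords came from wild-type, 10-week-old male C57BL/6J mice that carried ChAT-Cre and RiboTag fx/+, an allele that adds a hemagglutinin (HA) tag to a ribosomal protein once Cre has acted. Pulling down the tag from a homogenate recovers mRNA bound to tagged ribosomes. Mice were kept in 12 h of light and 12 h of dark, and cords were taken at Zeitgeber times (ZT, hours after lights on) 0, 4, 8, 12, 16 and 20, with 3 animals per time point and 1 cord per library. The control was 1 library of pooled input, the homogenate before the pull-down, from mice labelled with the same wild-type genotype. Its label also reads cholinergic neurons, although glial markers led in it, as the marker values show. ChAT-Cre marks every cholinergic neuron of the cord, so motor neurons and cholinergic interneurons are not separated.

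AMPA receptors are tetramers of GluA1 to GluA4 (genes Gria1 to Gria4), and their subunit mix sets speed and calcium entry. GluA2 is the subunit that keeps calcium out, because editing of its RNA changes a glutamine codon in the pore loop to one read as arginine. Kainate receptors are built from GluK1, GluK2 and GluK3 (Grik1 to Grik3), which can form channels by themselves, and from GluK4 and GluK5 (Grik4, Grik5), which bind glutamate with high affinity but need a partner of the first kind. Motor neurons receive much of their excitation through AMPA receptors and are known to be vulnerable to overactivation of them.

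The pore-loop site is shown because it is where editing of the RNA decides calcium entry. The coding bases around this codon (18 before, 24 after) are shown for each member, read from GENCODE M21 transcripts on GRCm38 (mm10), with the codon itself in capitals.
Gria1: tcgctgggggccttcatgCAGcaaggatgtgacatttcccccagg
Gria2: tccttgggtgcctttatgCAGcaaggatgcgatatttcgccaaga
Gria3: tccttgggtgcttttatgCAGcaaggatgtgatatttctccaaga
Gria4: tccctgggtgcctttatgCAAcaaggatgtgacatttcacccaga
Grik1: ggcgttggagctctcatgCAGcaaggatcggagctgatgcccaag
Grik2: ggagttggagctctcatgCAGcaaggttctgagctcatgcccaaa
Grik3: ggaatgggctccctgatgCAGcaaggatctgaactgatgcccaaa
Grik4: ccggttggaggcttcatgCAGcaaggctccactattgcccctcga
Grik5: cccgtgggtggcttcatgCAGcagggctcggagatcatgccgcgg
All 9 genes encode glutamine at this place in the genome, by CAA in Gria4 and by CAG in the other 8. Of the 45 bases, Gria2 shared 42 with Gria3 and 36 with Gria1. Among the kainate genes, Grik1 shared 40 with Grik2, whereas Grik3 shared only 22 with Grik4. The counts are per gene, so they tell neither how much of the RNA was edited nor which splice form was made.

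Gria1 lies on the plus strand at chr11:57011387-57330244, and its codon at chr11:57243094-57243096 is in exon 11 of 16. Gria2 lies on the minus strand at chr3:80681450-80802835, with the codon at chr3:80706911-80706913 in exon 11 of 16. Gria3 is X-linked, on the plus strand at chrX:41400854-41678601, with the codon at chrX:41610265-41610267 in exon 11 of 16. For Gria4, on the minus strand at chr9:4417896-4796234, the codon at chr9:4464137-4464139 is in exon 12 of 17. Grik1 occupies chr16:87895900-88290265 on the minus strand, and its codon at chr16:87940542-87940544 is in exon 13 of 18. Grik2 occupies chr10:49094833-49788766 on the minus strand, and its codon at chr10:49244329-49244331 is in exon 12 of 16. Grik3 was annotated at chr4:125490700-125714173 on the plus strand, with the codon at chr4:125691207-125691209 in exon 12 of 16. Grik4 shares chromosome 9 with Gria4, on the minus strand at chr9:42518135-42944493, and its codon at chr9:42547623-42547625 is in exon 14 of 19. Grik5 lies on the minus strand at chr7:25009849-25072346, with the codon at chr7:25022497-25022499 in exon 15 of 20. In Grik4 and Grik5 the whole window is in 1 exon. In the other 7 genes it crosses an exon junction.

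The table held between 6302140 and 22406850 expected counts per immunoprecipitate and 15239783 in the input. Levels are counts scaled to the library size (CPM, by the TMM method). Gria3 had 700 to 3567 counts per immunoprecipitate, and Grik3, the most thinly covered member, had 21 to 151. Cholinergic neuron markers (Chat, Slc5a7, Slc18a3, Ache, Isl1, Mnx1 and Prph) summed to 4251 to 5077 CPM in the immunoprecipitates against 459.7 CPM in the input, and all 7 had a mean above it, although Chat itself was below the input in 1 of 18 libraries. The 7 oligodendrocyte markers summed to 1518 to 2904 CPM against 21797 CPM, and the 6 astrocyte markers to 132.5 to 204.96 CPM against 2944 CPM. RNA of other cells was therefore reduced but not at 0. Markers of other neurons were reduced less. The 4 inhibitory neuron markers summed to 248.1 to 344.1 CPM against 823.5 CPM, and the 3 excitatory neuron markers to 44.2 to 77.5 CPM against 175 CPM.

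To set the ribosome-bound mRNA of these neurons beside RNA of the whole cord, each member was compared with the pooled input. Of the 9 members, 5 were depleted at the ribosomes of cholinergic neurons and 0 were enriched, where a call needs a 2-fold difference of the mean with every one of the 18 immunoprecipitates on the same side. Over 16828 genes compared, 25.3% were depleted and 14.1% enriched by the same rule. There was 1 input library, so these ratios carry no test, and the intervals given for the input are exact 95% Poisson intervals for counting error only. In bulk libraries, fewer cells of a type and less RNA per cell cannot be told apart. The input was RNA of the homogenate before the pull-down. The amount of an mRNA in these neurons therefore cannot be told from the part of it on ribosomes.

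The AMPA family split into pairs. Gria3, which encodes GluA3, was at 111 to 181 CPM (median 154) in the immunoprecipitates and at 87.3 CPM in the input (83.0 to 91.6), a log2 ratio of 0.81. Gria4, which encodes the fast-gating GluA4, was at 122 to 162 CPM (median 145) against 119 CPM (114 to 124). All 18 libraries lay above the input for both genes, by less than 2-fold on average. Gria1 was lower, at 37.1 to 68.6 CPM (median 52.7) against 111 CPM in the input (106 to 116). Gria2 was lower to a like degree, at 32.1 to 55.3 CPM (median 43.7) against 90.8 CPM (86.5 to 95.2). The log2 ratios were -1.07 for Gria1 and -1.06 for Gria2, and no immunoprecipitate reached the input for either gene.

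The kainate family split along the line between its channel-forming and its high-affinity subunits. Grik3 was the member furthest below the input, at 2.65 to 8.05 CPM (median 5.35) against 29.1 CPM (26.7 to 31.7), a 5.70-fold lower mean. Grik1 was at 2.54 to 7.25 CPM (median 5.03) against 13.1 CPM (11.5 to 14.8), 2.704-fold lower. Grik2 was at 8.12 to 16.9 CPM (median 11.6) against 24.9 CPM (22.6 to 27.2), 2.10-fold lower. All 18 libraries were below the input for each of these 3 genes. Grik4, by contrast, was at 21.3 to 32.8 CPM (median 26.7) against 19.3 CPM (17.4 to 21.4), with all 18 libraries above the input and a log2 ratio of 0.47. Grik5 was at 61.2 to 102 CPM (median 82.8) against 73.1 CPM (69.2 to 77.1), above the input in 14 libraries and below it in 4.

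**Figure D1:**
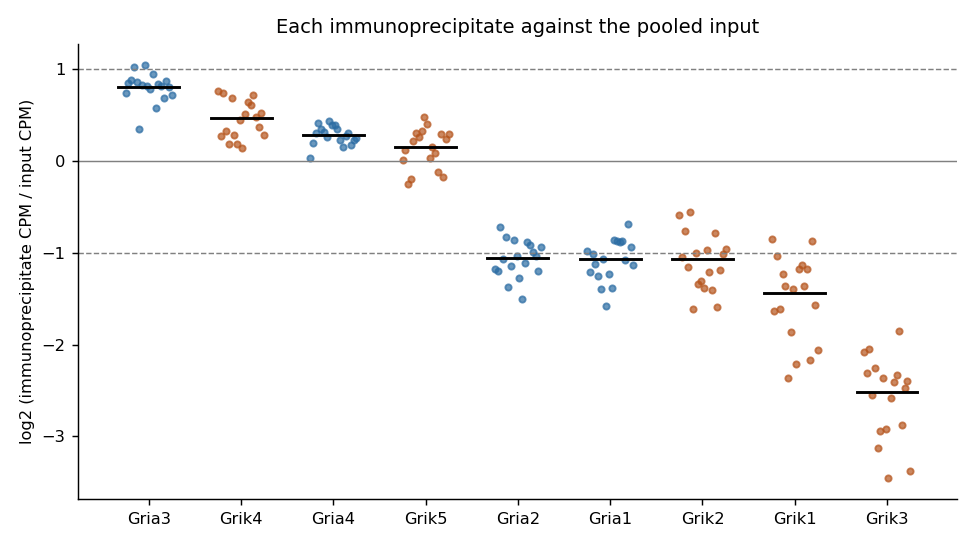
Log2 ratio of CPM in each of the 18 immunoprecipitates (points) to CPM in the pooled input, for each AMPA (blue) and kainate (brown) subunit. Black lines are ratios of the mean and dashed lines mark 2-fold. Gria1, Gria2, Grik1, Grik2 and Grik3 lie below the input in all 18 libraries, and Gria3, Gria4 and Grik4 above it in all 18.

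The scaling of the input mattered for the members close to it. With unscaled library totals the median log2 ratio of all genes moved from -0.13 to -0.42, and Gria4 moved from 0.28 to -0.0080 and Grik5 from 0.15 to -0.14, whereas the 5 depletion calls stayed in number at 5. Markers of inhibitory and excitatory neurons, 3 of 4 and 3 of 3 of them depleted, moved in the same direction as the depleted members. So did those of oligodendrocytes (7 of 7), their precursors (4 of 4), astrocytes (6 of 6), microglia (6 of 6), endothelial cells (4 of 4) and erythrocytes (4 of 4). The part of any of these cells in the result was not tested.

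Shares within a family do not depend on the scaling between libraries. Gria3 made up 38.7% ± 2.23 (SD, n = 18) of AMPA subunit counts in the immunoprecipitates and 21.4% in the input (exact binomial 95% interval 20.5 to 22.3). Gria4 made up 36.9% ± 2.60 against 29.2% (28.2 to 30.3). Gria1 fell short of its input share, with 13.4% ± 2.06 against 27.2% (26.1 to 28.2). The share of Gria2, the subunit that sets calcium entry, was 11.1% ± 1.27 against 22.3% (21.3 to 23.2). In all 18 libraries Gria3 and Gria4 were above and Gria1 and Gria2 below their input share. The summed AMPA level, unlike a share, depends on the scaling. By TMM it stood close to the input, with a mean of 394 CPM (SD 23.2 over 18 libraries) and an input value of 408 CPM.

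In the kainate family, Grik5 took 62.4% ± 6.24 of the counts (SD, n = 18) against 45.8% in the input (44.0 to 47.7). Grik4 took 20.7% ± 3.15 against 12.1% (11.0 to 13.4). Both were above their input share in all 18 libraries. Grik3 took 3.97% ± 1.23 against 18.2% (16.9 to 19.7), Grik2 took 9.17% ± 2.05 against 15.6% (14.3 to 17.0), and Grik1 took 3.75% ± 1.21 against 8.19% (7.22 to 9.24). The summed kainate level, also scaled by TMM, averaged 130 CPM (SD 9.08 over 18 libraries), with all of them below the input at 159 CPM.

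Levels can be set side by side between genes only per length, and the exon lengths used, from GENCODE M21, may differ from those behind the counts. Per kb of all annotated exons, Gria4 was highest at 23.0 CPM per kb ± 1.62 (SD, n = 18), followed by Grik5 at 15.7 ± 2.28 and Gria3 at 15.5 ± 1.61. Grik5 and Gria3 could not be ordered, since Grik5 was the higher of the pair in 9 of 18 libraries. Next came Gria1 at 8.72 ± 1.33 CPM per kb, Grik4 at 4.48 ± 0.647 and Gria2 at 2.81 ± 0.381, each above the next in all 18 libraries. Grik2 at 0.893 ± 0.194, Grik1 at 0.718 ± 0.215 and Grik3 at 0.569 ± 0.165 CPM per kb closed the order. The ranges of these last 3 overlapped, with Grik2 above Grik1 in 14 and Grik1 above Grik3 in 13 of 18 libraries.

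The order at the top and the place of Gria2 depended on the length used. Gria2 has 15548 bases of annotated exons but 2649 coding bases. Its whole-gene counts, untranslated exons included, came to 16.5 ± 2.24 CPM per kb of coding sequence, beside 19.4 ± 2.95 for Gria1. Such a scale raises genes with long untranslated parts and is not a level of the coding part alone. Per kb of the longest transcript, Gria2 was at 4.21 ± 0.572 CPM and Gria1 at 9.51 ± 1.45. On the coding scale, chosen after the data had been seen, Gria3 led at 57.4 ± 5.97 CPM per kb and was above Gria4 at 53.6 ± 3.77 in 13 of 18 libraries. Grik1, Grik2 and Grik3 were the last 3 on each of these scales. In the input, per kb of coding sequence, Gria4 was first at 44.0, followed by Gria1 at 40.7 and Gria2 at 34.3 CPM per kb.

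**Figure D2:**
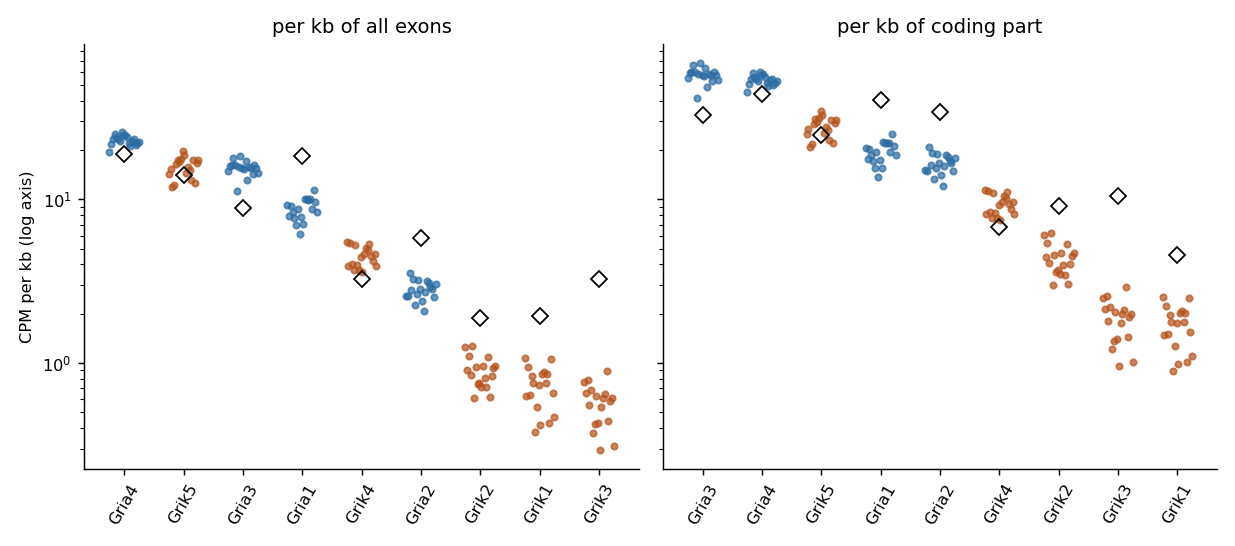
Level of each member on a log axis, as CPM of the whole gene per kb of all annotated exons (left) and per kb of coding sequence (right). Points are the 18 immunoprecipitates and open diamonds the pooled input; Gria3, Gria4 and Grik5 are the top 3 immunoprecipitate levels on both scales.

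Whether the receptor subunits followed the day was asked in the 18 immunoprecipitates with edgeR's quasi-likelihood F-test and with JTK_Cycle, a rank test for rhythms, adjusted over 15572 genes by the Benjamini-Hochberg method at 0.05. A 24-h cosinor, which fits a cosine and a sine term, called 0 of 9 members against a background of 6.24% of genes. At an unadjusted p below 0.05 it took in 1 member, against 26.7% of genes, and DESeq2 called 1 member and 14.4% of genes. The test of any difference among the 6 time points called 0 of 9 members against 6.74% of genes, with 0 members at an unadjusted p below 0.05 against 23.7% of genes, and DESeq2 called 0 members and 16.1% of genes. JTK_Cycle called 0 of 9 members against 0.0385% of genes, which is 6 genes, so its 0 tells little about the members. The study reported far more rhythmic transcripts by JTK_Cycle with the same periods. Its methods give an adjusted p below 0.05 but not the steps of the adjustment, so the thresholds may differ. Adjusted within the gene alone, JTK_Cycle took in 1 member against 15.8% of genes. The median cosinor amplitude of the 9 members was 0.13 on the log2 scale, beside 0.18 over all genes tested.

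Gria1, whose product GluA1 is the subunit best known for activity-dependent delivery to synapses, was the member with the lowest cosinor p. Its levels at replicates 1 to 3 were 56.1, 47.8 and 54.9 CPM at ZT0, 50.8, 46.5 and 42.0 CPM at ZT4, and 52.7, 37.1 and 47.3 CPM at ZT8. They were 42.4, 60.9 and 60.4 CPM at ZT12, 59.96, 60.4 and 52.6 CPM at ZT16, and 68.6, 57.85 and 50.5 CPM at ZT20. The highest mean was at ZT20 and the lowest at ZT8, with 1 ZT20 library inside the ZT8 range. The fitted amplitude was 0.19 on the log2 scale with a peak at ZT17.9, and the edgeR adjusted p was 0.0922. Its call depended on the tool and on 1 library: the adjusted p was 0.0491 in DESeq2 and 0.0383 in edgeR without ZT20 replicate 3. It was 0.419 with an oligodendrocyte score as a covariate and 0.591, at an amplitude of 0.15, without all replicates 2.

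Gria4 had the tightest course of all members, and it was the only one that JTK_Cycle took in within the gene. It was at 122, 137 and 147 CPM at ZT0, 159, 152 and 148 CPM at ZT4, and 143, 162 and 156 CPM at ZT8. It was at 157, 151 and 140 CPM at ZT12, 133, 144 and 147 CPM at ZT16, and 135, 139 and 142 CPM at ZT20. The light-phase means at ZT4 and ZT8 were the highest, 153 ± 5.64 and 154 ± 9.87 CPM (SD, n = 3), and ZT0 the lowest at 135 ± 12.3 CPM. The JTK_Cycle p within the gene was 0.0377 by its exact null distribution, and the p adjusted over genes was 0.241. The best template had a period of 20 h. With 24 h alone, which corrects for fewer templates, the p within the gene was 0.0178 and the p adjusted over genes 0.249. With all periods, the p within the gene was 0.235 with unscaled library totals, 0.0531 with upper-quartile scaling and 0.543 with the oligodendrocyte covariate. When each of the 18 libraries was left out in turn, the p within the gene was below 0.05 in only 2 cases. It ranged from 0.00957 to 0.210. The cosinor gave an amplitude of 0.092 on the log2 scale, a peak at ZT8.3 and an edgeR adjusted p of 0.209.

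Grik5 had the lowest p among the 3 contrasts between time points that were tested, of 15 possible pairs. Its levels were 73.7, 79.5 and 61.2 CPM at ZT0, 63.5, 84.8 and 90.4 CPM at ZT4, and 87.7, 91.7 and 102 CPM at ZT8. They were 96.4, 75.0 and 80.9 CPM at ZT12, 77.6, 67.3 and 89.4 CPM at ZT16, and 64.9, 86.1 and 89.5 CPM at ZT20. All ZT8 libraries lay above all ZT0 libraries, and the other time points overlapped with both. The share of Grik5 in kainate counts was 55.9% ± 6.92 (SD, n = 3) at ZT0 and 68.6% ± 1.00 at ZT8. It is computed from the same counts, so it adds no separate evidence.

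The other 6 members had no p below 0.05 in any of these tests. Gria2 had means from 37.2 CPM at ZT12 to 47.6 CPM at ZT16, the lowest and highest of the 6 time points, a pair that was not tested. Gria3 was flat, with means from 149 CPM at ZT4 to 163 CPM at ZT8 and a cosinor amplitude of 0.031. Grik4 had means from 23.9 CPM at ZT8 to 29.5 CPM at ZT0. Grik1, Grik2 and Grik3 had their highest means at ZT0, at 5.95, 14.4 and 6.59 CPM, and their lowest at ZT8, ZT16 and ZT12, at 3.70, 10.7 and 4.32 CPM. The coefficient of variation over the 18 libraries was 29.97% for Grik1 and 29.1% for Grik3, compared with 7.02% for Gria4 and 10.4% for Gria3, so the precision was poorest where counts were fewest.

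**Figure D3:**
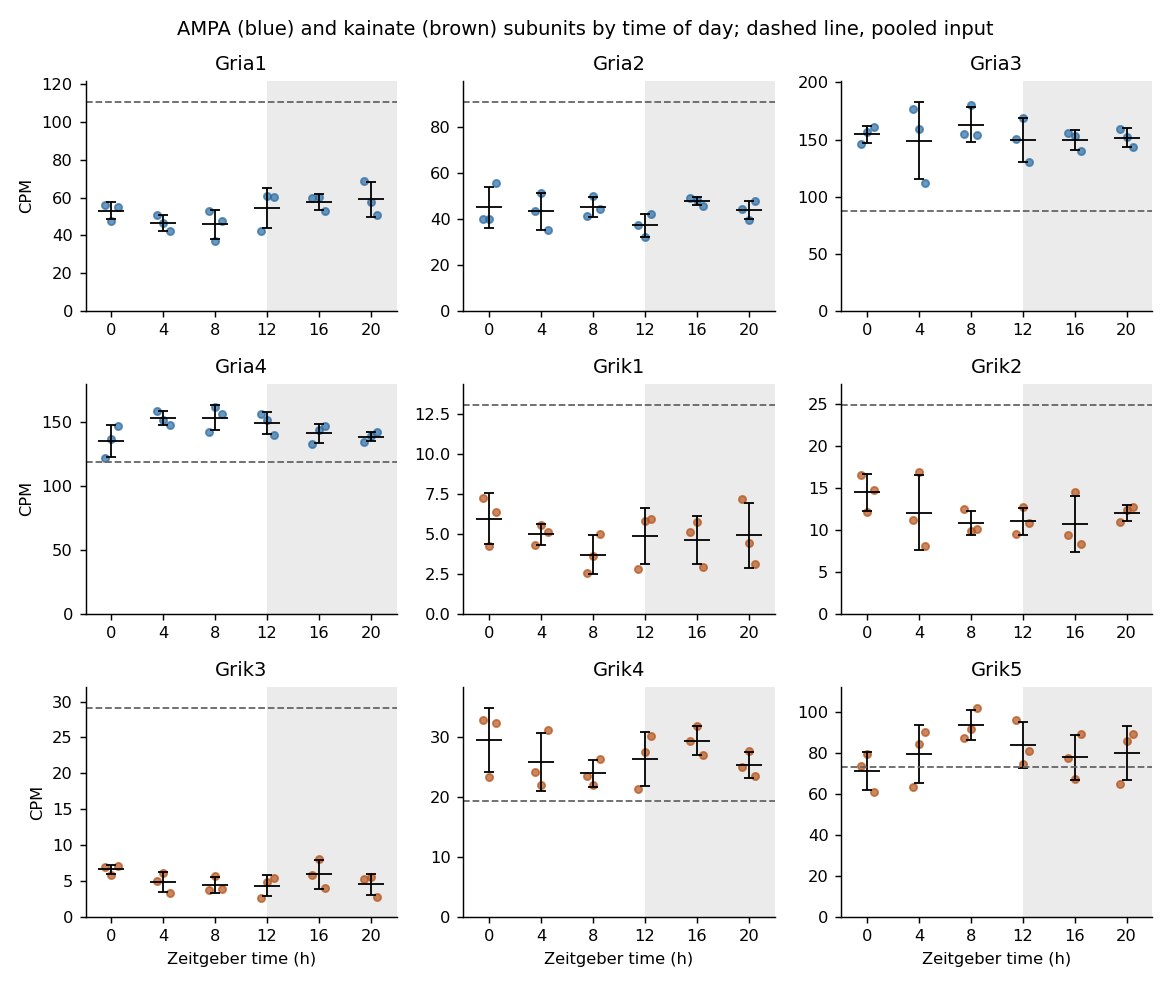
CPM of each member at the 6 Zeitgeber times (points, 3 animals each, set side by side for visibility; bars, mean and SD), with the dark phase shaded and the pooled input as a dashed line. Gria1 is highest at ZT20 (mean 59.0 CPM) and lowest at ZT8 (45.7 CPM), Grik5 highest at ZT8 (93.8 CPM) and lowest at ZT0 (71.5 CPM), with 0 of 9 members called by the cosinor.

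The 3 contrasts asked for differences between the light phase and either dawn or night, and they share the ZT8 libraries. From ZT0 to ZT8, edgeR called 0 of 9 members against 18% of genes, 8.95% higher and 9.02% lower. At an unadjusted p below 0.05 the contrast took in 1 member against 31.6% of genes, and DESeq2 called 1 member and 21.4% of genes. That member was Grik5, with a log2 change of 0.40 (95% interval 0.078 to 0.71) and an edgeR adjusted p of 0.0763. In DESeq2 its adjusted p was 0.0486, and without the filter on low counts the edgeR value was 0.0285. It was 0.0888 with a replicate block, 0.280 without ZT0 replicate 3 and 0.462 without all replicates 3, where the change was 0.23.

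Most kainate genes had a negative estimate from ZT0 to ZT8. The log2 change was -0.69 for Grik1 (95% interval -1.43 to 0.047), -0.57 for Grik3 (-1.25 to 0.11), -0.43 for Grik2 (-0.91 to 0.060) and -0.31 for Grik4 (-0.64 to 0.028). For the AMPA genes it was 0.18 for Gria4 (-0.0070 to 0.38), 0.075 for Gria3 (-0.20 to 0.35), -0.0031 for Gria2 (-0.31 to 0.31) and -0.21 for Gria1 (-0.53 to 0.10). Summed markers of inhibitory neurons were at 332.5 CPM ± 8.43 at ZT0 and 270.2 CPM ± 28.5 at ZT8 (SD, n = 3), and those of astrocytes at 176 CPM ± 10.2 and 150.03 CPM ± 16.9. Excitatory neuron markers were at 56.4 CPM ± 3.86 and 63.6 CPM ± 9.23. The part of these cells in the kainate values was not tested. The intervals were narrowest for Gria4 and widest for Grik1 and Grik3. The median over the 9 members was -0.21, beside -0.0030 over all genes tested.

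From ZT8 to ZT16, edgeR called 0 of 9 members against 16.9% of genes, 9.11% higher and 7.8% lower. At an unadjusted p below 0.05 it took in 1 member against 31% of genes, and DESeq2 called 0 members and 20.3% of genes. The member was Gria1, with a log2 change of 0.34 (95% interval 0.020 to 0.65) and an edgeR adjusted p of 0.134. Without ZT8 replicate 1 the change was 0.46 and the adjusted p 0.0422. Without ZT8 replicate 2 it was 0.21 (adjusted p 0.461), without all replicates 2 it was 0.18 (adjusted p 0.758), and with the oligodendrocyte covariate it was 0.22 (adjusted p 0.467). From ZT8 to ZT20, edgeR called 0 of 9 members and 0% of genes, whereas DESeq2 called 1114 genes (7.15%). At an unadjusted p below 0.05 it took in 1 member against 22.3% of genes, and DESeq2 called 0 members. Gria1 was again that member, with a log2 change of 0.36 (0.044 to 0.68) and an adjusted p of 0.168. The median over the 9 members was 0.079 from ZT8 to ZT16 and 0.013 from ZT8 to ZT20.

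**Figure D4:**
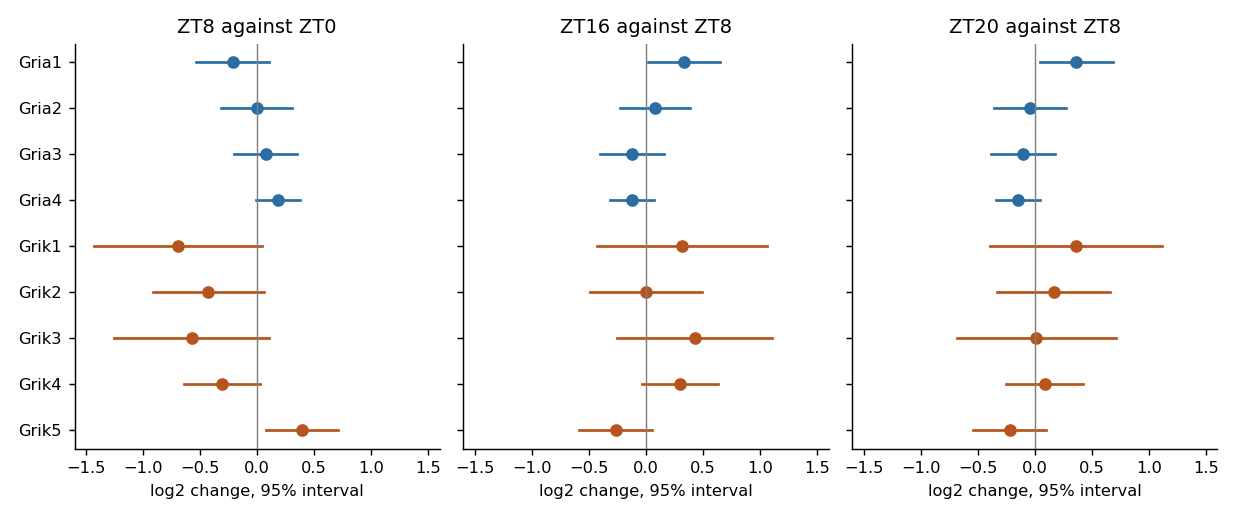
Log2 change of each member between time points (points) with its 95% interval (lines) from the edgeR fit, AMPA subunits in blue and kainate subunits in brown. The interval leaves out 0 for Grik5 from ZT0 to ZT8 and for Gria1 from ZT8 to ZT16 and from ZT8 to ZT20, and no adjusted p was below 0.05.

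The genes whose levels ran most like a member's over the 18 immunoprecipitates were ranked by Pearson's r of log2 CPM, as a description, since these libraries share their depth and time points. Gria1 ran with Dag1, which encodes dystroglycan (r = 0.93), and with Ddx18 (r = 0.92). Grik5 ran with Pcbp4 (r = 0.93) and B4galnt4 (r = 0.91), and Gria3 with Unc5d (r = 0.88) and Tmem30a (r = 0.88). Gria4 ran with Rgs17 (r = 0.85) and Sdhaf4 (r = 0.85). Gria2 ran with Ids (r = 0.84) and with Heph (r = 0.84), whose mean was only 0.427 CPM. Grik3 ran with Abhd6, which is itself one of the partner genes described next (r = 0.90), and with Spice1 (r = 0.85, mean 2.80 CPM). Grik1 ran with Cpne1 (r = 0.78) and Ankrd34c (r = 0.78), and Grik2 with Slc9a7 (r = 0.81) and Klhl4 (r = 0.80, mean 1.64 CPM). For Grik4 the 2 most like rows, ND4L and Gm10222 (r = 0.90 each), carried the same mean level of 2.34 CPM, so their reads cannot be told apart.

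The partners of the receptors were described from 7 lists with 45 genes, all tested. Of these, edgeR called 6 by the cosinor, 2 by the test of any time difference and JTK_Cycle called 0, with 8 at a p below 0.05 within the gene. From ZT0 to ZT8 it called 11, of which 3 were higher and 8 lower at ZT8 (1 higher and 10 lower with unscaled library totals), and from ZT8 to ZT16 it called 10, of which 8 were higher and 2 lower at ZT16. From ZT8 to ZT20 edgeR called 0, with 12 at an unadjusted p below 0.05, and DESeq2 called 5. Over all genes, 6.24% were called by the cosinor and 6.74% by the test of any time difference. From ZT0 to ZT8, 8.95% were higher and 9.02% lower, and from ZT8 to ZT16, 9.11% were higher and 7.8% lower. The other backgrounds are those given for the members.

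The AMPA receptor auxiliary subunits, which ride with the channel and set its gating and delivery, held 4 of 14 genes lower at ZT8 than at ZT0 and 0 higher. Over all genes, 9.02% were lower and 8.95% higher. The 4 were Cacng2, Cacng3, Cacng7 and Cacng8, among the 6 genes for transmembrane AMPA receptor regulatory proteins in the list. Those 6 did not form a list of their own. The other 2 were not called by edgeR. Cacng5 had a log2 change of -0.28, and Cacng4 one of the opposite sign, 0.47 (adjusted p 0.0854). Cacng2, which encodes stargazin, was at 115, 103 and 119 CPM at ZT0, 78.9, 43.5 and 53.9 CPM at ZT8, and 107, 148 and 72.5 CPM at ZT16. The ZT8 libraries lay below all ZT0 libraries. Its log2 change was -0.94 from ZT0 to ZT8 (SE 0.23, edgeR adjusted p 0.0114) and 0.90 from ZT8 to ZT16 (adjusted p 0.0148). The cosinor gave an amplitude of 0.45 on the log2 scale, a peak at ZT19.2 and an adjusted p of 0.0410, and the test of any time difference an adjusted p of 0.0489. Cacng7 was at 171, 146 and 138 CPM at ZT0 and 123, 43.0 and 85.3 CPM at ZT8, a log2 change of -0.86 (adjusted p 0.0260). Cacng3 and Cacng8, named after their values were seen, had log2 changes of -1.50 (adjusted p 0.0237) and -0.83 (adjusted p 0.0116). Prrt1, the other abundant member of the list, was at 104 CPM ± 9.39 (SD, n = 18) and passed no test.

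Of the 6 assembly and biogenesis factors, which act on the receptors in the endoplasmic reticulum, 1 was higher and 2 were lower at ZT8 than at ZT0. The shares over all genes were 8.95% and 9.02%. Porcn, which encodes an acyltransferase best known for lipid modification of Wnt proteins and also found with AMPA receptors, was at 46.4, 28.7 and 42.5 CPM at ZT0 and at 16.6, 9.15 and 17.1 CPM at ZT8. At ZT16 it was at 45.2, 53.6 and 25.3 CPM, above every ZT8 library. The log2 change was -1.46 from ZT0 to ZT8 (edgeR adjusted p 0.00519) and 1.54 from ZT8 to ZT16 (adjusted p 0.00538). Frrs1l, which encodes a factor that helps AMPA receptors assemble, ran the other way, with 11.1, 15.1 and 10.8 CPM at ZT0, 14.6, 19.2 and 25.2 CPM at ZT8 and 7.33, 12.7 and 10.9 CPM at ZT16. Its log2 change was 0.68 from ZT0 to ZT8 (adjusted p 0.0388) and -0.92 from ZT8 to ZT16 (adjusted p 0.0109). Abhd12 was lower at ZT8 than at ZT0 by a log2 change of -0.33 (adjusted p 0.0420). Sacm1l, the other abundant member, was at 122 CPM ± 10.7 (SD, n = 18) and passed no test.

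Among 3 RNA editing enzymes, Adarb1 was higher at ZT8. It encodes ADAR2, the enzyme that edits the pore-loop codon of Gria2 shown above. It was at 295, 318 and 279 CPM at ZT0, 362, 372 and 375 CPM at ZT8 and 291, 282 and 314 CPM at ZT16, and the ZT8 libraries lay above those of both other times. The log2 change was 0.31 from ZT0 to ZT8 (edgeR adjusted p 0.0157) and -0.32 from ZT8 to ZT16 (adjusted p 0.0148). Its cosinor amplitude was 0.14 with a peak at ZT7.2 (adjusted p 0.0478). Adar, which encodes ADAR1, was at 113 CPM ± 7.35 (SD, n = 18) and passed no test.

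Of 12 scaffold and trafficking partners, Dlg2 and Gripap1 were called by the cosinor. From ZT0 to ZT8 edgeR called 1 higher and 2 lower, beside 8.95% and 9.02% of all genes. From ZT8 to ZT16 it called 2 higher and 0 lower, beside 9.11% and 7.8%. Syndig1, named after its values were seen, was called in both contrasts. Its log2 change was -0.49 from ZT0 to ZT8 (edgeR adjusted p 0.0124) and 0.46 from ZT8 to ZT16 (adjusted p 0.0165). Dlg2, which encodes the scaffold PSD-93, was at 70.8, 63.6 and 68.1 CPM at ZT0, 57.8, 40.8 and 51.3 CPM at ZT8 and 69.8, 76.6 and 62.5 CPM at ZT16 (cosinor adjusted p 0.0388). Gripap1, which encodes a GRIP1-associated protein of recycling endosomes, was at 179, 188 and 175 CPM at ZT0 and 208, 222 and 210 CPM at ZT8 (cosinor adjusted p 0.0482). The most abundant members of that list, Nsf at 1004 CPM ± 42.4 and Epb41l1 at 552 CPM ± 24.2 (SD, n = 18), passed no test. The other 3 lists, among them the kainate receptor auxiliary subunits and ligands and the extracellular organizers, held 0 of 10 genes called in edgeR or by JTK_Cycle. Each single test called 0% to 18% of all genes. At an unadjusted p below 0.05 in any of the 6 tests, these lists held 2 genes (C1ql2 and Grid1). The share of all genes was 15.8% to 31.6% in each single test. DESeq2 called 1 of the 10, Grid1. In these lists Neto1, a kainate receptor auxiliary subunit, was at 17.9 CPM ± 2.68 and C1ql2 at 19.7 CPM ± 4.57, and the synaptic organizers Olfm1 and Nptx1 at 342 CPM ± 12.8 and 29.9 CPM ± 6.30. Grid1, a delta receptor gene, was at 40.2 CPM ± 9.05.

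**Figure D5:**
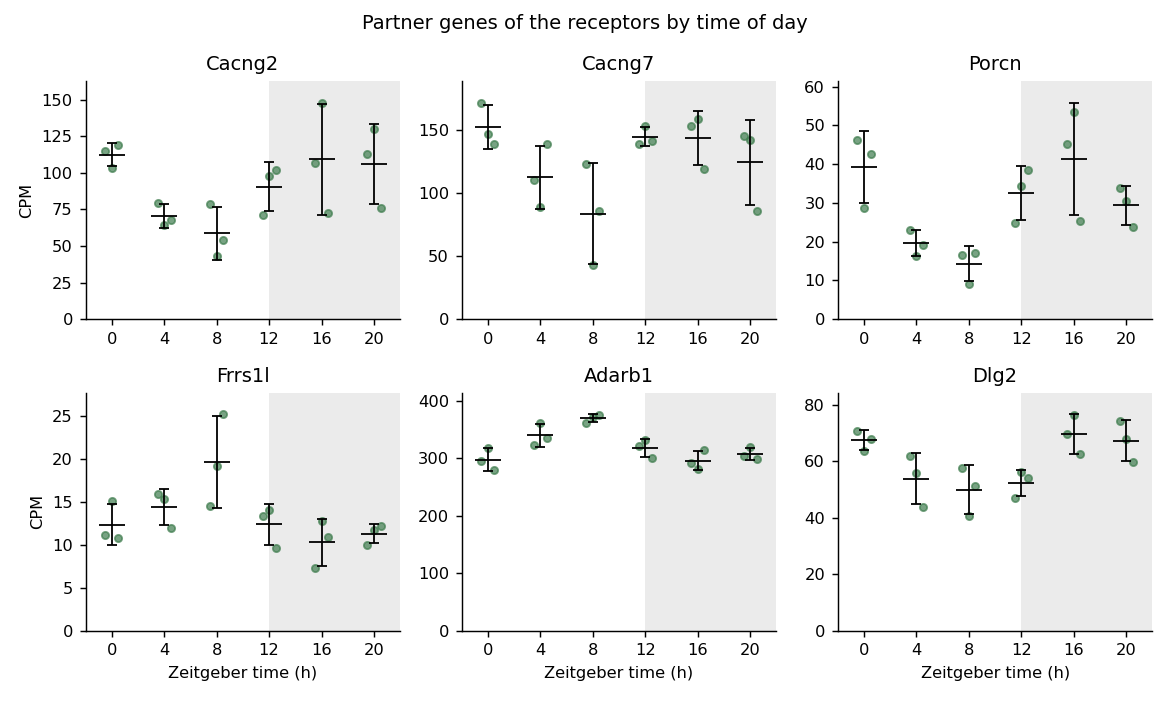
CPM of 6 partner genes at the 6 Zeitgeber times (points, 3 animals each; bars, mean and SD), with the dark phase shaded. Cacng2, Cacng7, Porcn and Dlg2 have their lowest means at ZT8, and Frrs1l and Adarb1 their highest.

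These partner calls rested on single libraries to differing degrees. Leaving out 1 library at a time turned the 6 cosinor calls into 0 for 10 of the 18 choices and into at most 13. The 11 calls from ZT0 to ZT8 ranged from 1 to 17, and the 10 from ZT8 to ZT16 from 1 to 14. Without all replicates 2, each of the 6 tests called 0 partner genes, and without all replicates 3 the contrast from ZT0 to ZT8 called 0. With only the 6 libraries of the 2 time points, the contrasts called 4 from ZT0 to ZT8 and 0 from ZT8 to ZT16. Porcn kept both of its contrast calls without each of the 18 libraries, with a highest adjusted p of 0.0395 from ZT0 to ZT8 and 0.0482 from ZT8 to ZT16, whereas Cacng2 kept its cosinor call in 7 of 18, Adarb1 in 5 of 18 and Gripap1 in 3 of 18. Gripap1 lost its call from ZT0 to ZT8 without any single library. Leaving out ZT8 replicate 2 gave the highest adjusted p for Cacng2 (0.0814), Cacng7 (0.129), Dlg2 (0.190) and Adarb1 (0.0782) from ZT0 to ZT8, and leaving out ZT8 replicate 3 did so for Frrs1l (0.224). With an oligodendrocyte score as a covariate, the cosinor called 0 and the contrasts 5 and 1 of the 45 genes. Over all 15572 genes, this covariate left 2 called by the cosinor, 1905 from ZT0 to ZT8 and 339 from ZT8 to ZT16. The loss of calls was thus not particular to the partner genes. The summed oligodendrocyte markers were 2028 CPM ± 194.1 at ZT0, 1868 CPM ± 133.7 at ZT8 and 2274 CPM ± 546.2 at ZT16 (SD, n = 3), and those of inhibitory neurons 314.2 CPM ± 21.1 at ZT16. The part of oligodendrocytes in these results was tested only through this covariate, and that of the other cells was not tested. Whether partner genes changed more than the subunits was not tested.

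Against the input, 3 of the 45 partner genes were enriched and 11 depleted, beside 14.1% and 25.3% of all genes compared. The share depleted was thus near the background and the share enriched below it, so the values that follow describe single genes. The 3 were C1ql2, at 19.7 CPM against 2.82 CPM, Gripap1, at 199 CPM against 69.5 CPM, and Olfm1, at 342 CPM against 166 CPM. C1ql2 belongs to the C1q-like proteins that gather kainate receptors at synapses, and its relative C1ql3 was depleted, at 3.03 CPM against 23.2 CPM. Also on the depleted side, Neto2, the other kainate receptor auxiliary subunit, was at 5.20 CPM against 26.1 CPM, and the neuronal pentraxin genes Nptx1, Nptx2 and Nptxr, whose products cluster AMPA receptors, lay 5.63-fold, 3.26-fold and 16.1-fold below the input. Adarb1 was above the input in all 18 libraries, at 321 CPM ± 29.9 (SD, n = 18) against 212 CPM, short of 2-fold.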

How the data were processed

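Ribosome-bound mRNA from 18 immunoprecipitates and 1 pooled input was sequenced by the authors as stranded, paired-end libraries, aligned to mm10 (STAR 2.7.5) and counted per gene by RSEM. What the authors deposited are expected counts without normalization, of which 1.90% to 3.68% per library were not whole. RSEM divides reads shared between genes by a model. Each value column matched 1 sample by its name.

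The expected counts were first rounded to whole numbers. Genes were filtered with filterByExpr over the 6 time points (15572 of 25601 with a count) and scaled by TMM in edgeR 4.0.16 (R 4.3.3). Cosinor, any-time and contrast tests used edgeR's quasi-likelihood F-test on all 18 immunoprecipitates, and JTK_Cycle used periods of 20, 24 and 28 h (18 templates, time points of equal cosine merged) on log2 CPM with a prior count of 2. All p-values were adjusted by the Benjamini-Hochberg method at 0.05. The 95% intervals of contrasts used standard errors taken from the F statistic. Alternatives were DESeq2 1.42.0 (test and size factors), other scalings, filters, gene lengths and a prior count of 0.5, a replicate block, an oligodendrocyte score and leaving out libraries. Fits were tested on simulated data.

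Named were all members, the 2 genes most like each, and from each partner list those passing the cosinor or the test of any time difference (at most 6) and the 2 most abundant, of which 1 gene is not reported here. Members and lists were chosen with earlier results of these data known. Genes compared with the input passed the filter or had at least 10 input counts. Intervals on the input and on shares cover counting error only, as reads carry no molecular identifiers. The study's methods name Ensembl as annotation, but of the 50559 symbols 48908 were found in RefSeq and 37796 in GENCODE M21 (GRCm38). GENCODE M21 supplied lengths and coordinates by symbol, so lengths may not be those that were counted.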

Additional observations from a re-analysis of the deposited data

How the results depend on the processing

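The number of members called was 0 in all 6 tests, and it stayed at 0 under every alternative except these. The DESeq2 test called 1 member by the cosinor (Gria1) and 1 from ZT0 to ZT8 (Grik5), a filter of 1 count called 1 from ZT0 to ZT8 (Grik5), and adjustment within the gene alone called 1 by JTK_Cycle (Gria4). Leaving out libraries or replicate numbers gave 0 to 1 members by the cosinor (1 without ZT20 replicate 3) and from ZT8 to ZT16 (1 without ZT8 replicate 1), and 0 in the other tests. Against the input, 5 members were enriched or depleted under all scalings and left-out libraries, and 6 past 1.5-fold. The cause of each change was not tested.

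Deviations of same-numbered libraries correlated at -0.15 to 0.18 and exceeded 0.1 in 4 of 45 pairs. Those of differently numbered libraries correlated at -0.21 to 0.18, so pairing by replicate number was not apparent. Low correlations do not show that pairing was absent, and whether same-numbered libraries shared a batch was not tested directly. With a replicate block, 0 members were called in any test, and the block moved JTK_Cycle from 6 to 356 of all genes.

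Of 54 tested member results, 10 turned direction under some alternative, in 34 of 1611 values, all with main estimates near 0 or wide intervals and none with an adjusted p below 0.05. Gria2 from ZT0 to ZT8 was 0.0080 with DESeq2 size factors, 0.0023 with the replicate block, 0.0078 in the DESeq2 test and -0.18 to 0.19 leaving out libraries. Grik2 from ZT8 to ZT16 was -0.00016, -0.028 and -0.00082 under the same settings, -0.052 with the oligodendrocyte covariate, -0.0045 with 6 libraries and -0.34 to 0.22 leaving out libraries. Grik3 from ZT8 to ZT20 was -0.0012 with the replicate block and -0.20 to 0.29 leaving out libraries. With the oligodendrocyte covariate, Gria3 was -0.0061 from ZT0 to ZT8, 0.0088 from ZT8 to ZT16 and 0.023 in cosinor amplitude (peak moved by over 6 h). Leaving out libraries, these ranged from -0.017 to 0.15, from -0.17 to -0.035 and from 0.013 to 0.079. Likewise the Grik1 amplitude ranged from 0.13 to 0.39, and changes from ZT8 to ZT20 from -0.16 to 0.87 for Grik1, -0.13 to 0.11 for Gria2 and -0.046 to 0.22 for Grik4.

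The counts over all genes were less stable. Leaving out 1 library, the cosinor called 2 to 2668 genes (972 in the report), the test of any time difference 5 to 2453 (1049), JTK_Cycle 0 to 754 (6), ZT0 to ZT8 274 to 4010 (2798), ZT8 to ZT16 72 to 3885 (2633) and ZT8 to ZT20 0 to 2318 (0). The DESeq2 test called 2247 genes by the cosinor, 2502 by the test of any time difference and 1114 from ZT8 to ZT20. A filter of 1 count called 2349, 2767 and 1641 genes in these tests. With the oligodendrocyte covariate, 2 genes were called by the cosinor, 0 by the test of any time difference and 339 from ZT8 to ZT16, and with 6 libraries alone 1 from ZT8 to ZT16. Depth limits Grik1 and Grik3, which had as few as 32 and 21 counts in a library.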
